A study of Rattus norvegicus with 28 samples.

Results

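A set of 9 genes of reactive gliosis and inflammation was followed across neural progenitor cells kept in culture and in the same kind of cells after exposure to spinal cord, injured or not. They are Spp1, Lgals3, Cd44, Lcn2, C3, Stat3, Ccl2, Il1b and Il6, 9 of the 32545 genes in the deposited count table, chosen by name as a functional set. All 9 passed the low count filter that 14282 genes passed. The pairing of each Ensembl identifier with its symbol was taken as given with the set, because the count table holds identifiers only.

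The libraries are labelled as rat neural progenitor cells, dividing cells that can form neurons and glia, and fall into 7 groups of 4. The first group was labelled as culture condition. The other 6 are labelled by exposure to spinal cord, with or without the word injury, for 2, 3 or 4 weeks, and the groups without that word are called uninjured here. Below, a level in injured or uninjured cord means the level in libraries with that exposure label. These libraries are labelled as progenitor cells and not as cord tissue. Strain, sex, age, genotype, the way of exposure, any sorting of the cells and the origin of the replicates are not stated in the labels, so each p-value rests on sample-to-sample spread alone, and that spread may be technical. The cell type label was not checked against marker genes, since their identifiers could not be paired with symbols.

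Reactive gliosis is the response of glia to damage, in which astrocytes and microglia change shape, divide and secrete cytokines, matrix proteins and complement. Cytokines of the interleukin 6 family signal through the shared receptor subunit gp130 and Janus kinases to the transcription factor STAT3, which in the injured cord is known for its part in the astrocyte scar. Interleukin 1 beta acts mainly through NF-kB and induces interleukin 6, CCL2, lipocalin 2 and complement C3 in glia, while osteopontin (Spp1) and galectin 3 are abundant in phagocytic microglia and CD44 binds both hyaluronan and osteopontin.

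RefSeq promoter sequences (build GRCr8) were found for 7 of the 9 genes, all but Lgals3 and Ccl2. The 250 bases before the start site are shown for 6 of the 7 genes that differed between injured and uninjured cord at week 3, 4 that were lower in injured cord (C3, Il6, Lcn2, Il1b) and 2 that were higher (Cd44, Stat3). Capitals mark matches on either strand to a C/EBP motif (TTGCNNAA), a STAT motif (TTCNNNGAA), an AP-1 motif (TGANTCA) or the NF-kB motif.
C3, chr9:2201340-2201589, minus strand: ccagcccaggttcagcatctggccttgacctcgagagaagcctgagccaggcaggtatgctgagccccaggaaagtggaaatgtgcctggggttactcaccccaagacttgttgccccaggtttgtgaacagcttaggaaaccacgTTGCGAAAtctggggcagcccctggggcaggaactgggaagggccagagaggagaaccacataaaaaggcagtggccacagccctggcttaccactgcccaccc
Il6, chr4:5894576-5894825, minus strand: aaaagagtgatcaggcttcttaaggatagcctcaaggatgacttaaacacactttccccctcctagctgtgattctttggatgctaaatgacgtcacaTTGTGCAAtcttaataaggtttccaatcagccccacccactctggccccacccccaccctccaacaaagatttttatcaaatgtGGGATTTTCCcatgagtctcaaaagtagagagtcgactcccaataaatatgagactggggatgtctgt
Lcn2, chr3:36081781-36082030, minus strand: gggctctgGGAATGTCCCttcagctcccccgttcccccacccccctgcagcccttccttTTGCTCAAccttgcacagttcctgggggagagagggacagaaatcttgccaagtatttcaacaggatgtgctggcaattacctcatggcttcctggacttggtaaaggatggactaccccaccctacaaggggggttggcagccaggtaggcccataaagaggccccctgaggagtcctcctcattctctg
Il1b, chr3:137036582-137036831, minus strand: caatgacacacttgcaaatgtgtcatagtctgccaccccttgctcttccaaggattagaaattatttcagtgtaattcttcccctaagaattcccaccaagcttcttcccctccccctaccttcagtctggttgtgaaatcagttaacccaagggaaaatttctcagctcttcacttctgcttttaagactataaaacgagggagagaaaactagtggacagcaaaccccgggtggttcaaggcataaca
Cd44, chr3:109699425-109699674, minus strand: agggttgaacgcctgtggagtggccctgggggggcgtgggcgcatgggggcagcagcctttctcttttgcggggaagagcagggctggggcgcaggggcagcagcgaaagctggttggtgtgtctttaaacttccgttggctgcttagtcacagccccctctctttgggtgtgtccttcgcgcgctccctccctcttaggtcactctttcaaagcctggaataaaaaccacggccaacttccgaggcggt
Stat3, chr10:86363360-86363609, minus strand: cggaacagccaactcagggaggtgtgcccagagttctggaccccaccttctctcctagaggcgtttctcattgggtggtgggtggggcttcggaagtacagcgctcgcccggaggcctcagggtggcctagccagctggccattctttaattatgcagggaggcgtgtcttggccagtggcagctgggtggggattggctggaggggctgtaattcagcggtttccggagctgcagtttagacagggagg
The C/EBP letters stand from base 147 of the C3 run, 99 of the Il6 run and 60 of the Lcn2 run, and in 9.22% of all 33469 promoter windows of this length. The NF-kB motif stands from base 183 of the Il6 run and 9 of the Lcn2 run, and in 6.33% of all windows. No match to any of the 4 motifs was found in the Il1b, Cd44, Stat3 and Spp1 windows, and none to the STAT and AP-1 letters in any of the 7, against 7.67% and 6.34% of all windows. No 2 matches overlapped. A match is a string of letters in this window and not a measured binding site.

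Levels are counts divided by the scaled library total (CPM), so each gene is compared only with itself across libraries. Library totals ran from 2605188 to 6908508 counts outside week 2, and from 84532 to 446331 in the 8 libraries of week 2, so that week 2 and low depth coincide. Injured week 3 replicate 3 lacked 2755 of 9636 genes entirely although each of its 3 companions predicted at least 20 counts for them, C3 among them. Its zeros were treated as missing and it was left out of the tests, which therefore rest on 27 libraries with n = 3 in injured week 3 and n = 4 elsewhere. Where its inclusion ended a call for a single gene, the value is given. Of the 7 members with counts in it, 4 lay within the range of its companions (Stat3 at 407.1, Il1b at 44.1, Spp1 at 73.1 and Ccl2 at 8.87 CPM) and 3 above it (Cd44 at 65.2, Lgals3 at 18.05 and Il6 at 0.459 CPM). Its CPM was scaled in the fit of all 28 libraries, and that of its companions in the fit of 27. In it 3 counts were 0.459 CPM, against 0.844 to 0.905 CPM in its companions. Its total of 3614226 counts was near theirs, 3147432 to 3489857. The place of its values therefore depends on the scaling, and plain totals were not used. These are bulk samples, in which fewer cells of a type and less RNA per cell cannot be told apart.

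At week 3 the set split with injury. There, 5 genes were lower in injured than in uninjured cord (C3, Il1b, Il6, Ccl2 and Lcn2) and 2 were higher (Cd44 and Stat3), while Spp1 and Lgals3 did not pass the test. The 7 calls of 9 compare with 46.0% of all 14282 genes tested (edgeR, adjusted p under 0.05), the 5 lower with 25.3% and the 2 higher with 20.7%. The libraries of the same 7 genes did not overlap between the groups, as for 58.2% of all genes. The median fitted log2 fold change was -2.82 over the 9 genes and 0.00701 over all genes. RLE size factors moved the latter to 0.260, a shift of 0.253, and changed no call of a member at this week.

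At week 4 the split was narrower on the lower side. Here 3 genes were lower in injured cord (Ccl2, Lcn2 and Il1b) and 3 higher (Cd44, Stat3 and Lgals3), against 27.3% of all genes called, 15.2% lower and 12.1% higher. C3 and Il6, called at week 3, did not pass the test. The libraries of 6 genes did not overlap, as for 36.4% of all genes. The median log2 fold change was -0.00756 over the 9 genes and 0.00711 over all genes. At week 2 none of the 9 genes passed the edgeR test in the main fit of 27 libraries, against 3.37% of all genes. Of the 9 genes, 3 had an unadjusted p under 0.05 (Lcn2, Il1b and Spp1, each with the higher mean in injured cord). Such values were common at this week. In the fit of all 28 libraries, 2435 of 13865 genes had one, and again 3 of the 9. Whether 3 of 9 exceeds the share of all genes was not tested. DESeq2 called 1 of the 3, Lcn2 (adjusted p = 0.0186), among 1653 genes that it called at this week.

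**Figure D1:**
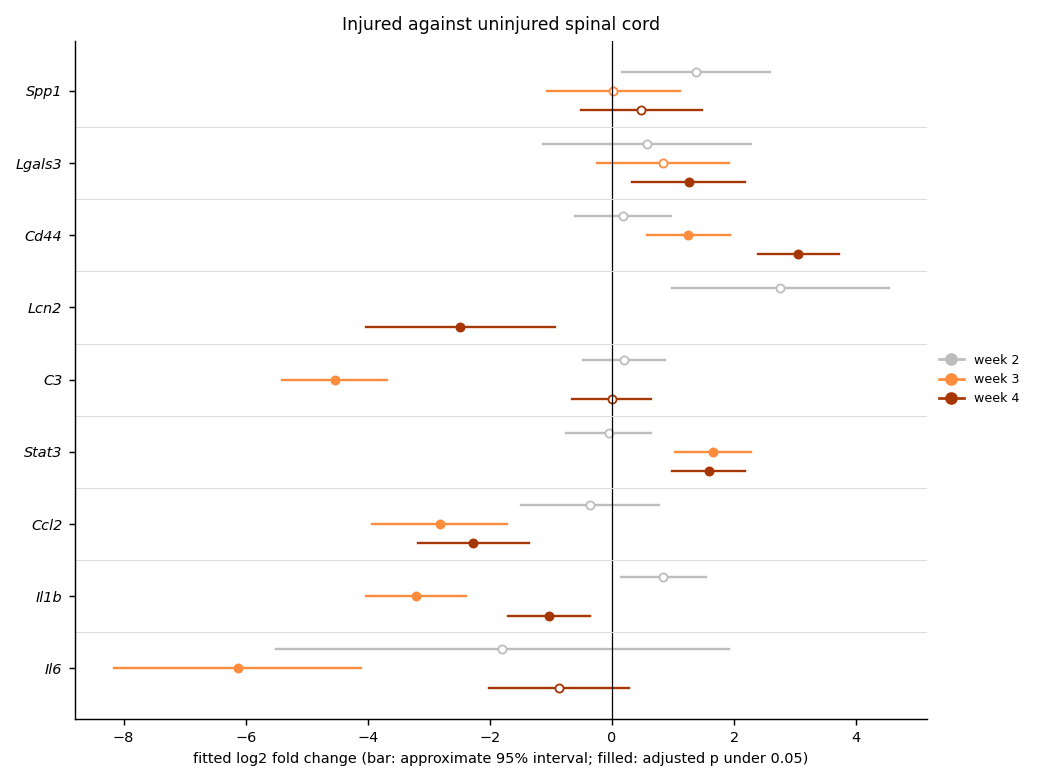
Fitted log2 fold changes of injured against uninjured cord for each gene (y axis) at weeks 2, 3 and 4, with approximate 95% intervals as bars, n = 4 per group and 3 in injured week 3. Filled points passed an adjusted p under 0.05 in edgeR. Week 3 of Lcn2 is left out because all injured libraries had 0 counts. C3, Il1b, Il6 and Ccl2 lie left of 0 at week 3, and Cd44 and Stat3 right of it at weeks 3 and 4.

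Complement C3 (ENSRNOG00000046834), the protein on which all complement pathways converge, was far lower in injured than in uninjured cord at week 3, and no difference was detected at weeks 2 or 4. Its uninjured week 3 libraries held 1438, 1853, 1826 and 2014 CPM, and the 3 injured ones 113.1, 64.1 and 51.9 CPM. Every injured library was thus far below every uninjured one. The means of 76.4 ± 32.4 CPM (SD, n = 3) and 1782 ± 244 CPM (SD, n = 4) differed 23.3-fold, a log2 fold change of -4.54 ± 0.41 (SE; edgeR adjusted p = 1.17e-12). At week 4 the injured libraries held 2044, 671, 993 and 976 CPM and the uninjured ones 1363, 1577, 705 and 1061 CPM. These ranges overlapped (log2 fold change -0.01, 95% interval -0.66 to 0.64, edgeR adjusted p = 0.991). From week 3 to week 4 this effect of injury moved by 4.54 log2 units ± 0.49 (SE; edgeR adjusted p = 2.48e-09).

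At week 2 C3 stood at 461, 948, 622.5 and 379 CPM in injured and at 668, 477, 741 and 225 CPM in uninjured cord, again with overlapping ranges (log2 fold change 0.19 ± 0.32 SE, edgeR adjusted p = 0.792). Within injured cord, week 3 was therefore the low point, 7.89-fold below week 2 (log2 fold change -2.99 ± 0.38 SE, edgeR adjusted p = 2.43e-08) and 15.3-fold below week 4 (log2 fold change of week 4 over week 3 3.94 ± 0.40 SE, edgeR adjusted p = 2.18e-10). Culture held 22.5 to 40.8 CPM, the lowest range of the 7 groups. In order of mean, uninjured week 3 was followed by uninjured week 4, injured week 4, injured week 2 and uninjured week 2, each overlapping the next, and then without overlap by injured week 3 and culture. With injured week 3 replicate 3 and its 0 counts in the fit, injured week 3 no longer differed from culture (adjusted p = 0.547, against 0.00466 without it), and the other calls of C3 given here held.

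Interleukin 1 beta (Il1b, ENSRNOG00000004649), the cytokine that starts much of the glial inflammatory response, had few counts in culture, at 1.07, 2.30, 1.09 and 1.77 CPM from 36 counts in all. In uninjured cord it held 256, 573, 379.5 and 292 CPM at week 3 and 530.1, 869, 459.7 and 1003 CPM at week 4. Injured week 3 libraries held 52.6, 45.5 and 23.2 CPM and injured week 4 libraries 191, 383, 389 and 436 CPM. All injured libraries lay below all uninjured ones at both weeks. The difference was 9.28-fold at week 3, a log2 fold change of -3.21 ± 0.39 (SE; edgeR adjusted p = 2.76e-09). It was 2.05-fold at week 4, a log2 fold change of -1.03 ± 0.32 (SE; edgeR adjusted p = 0.0115). The week 4 call was lost without injured week 4 replicate 1 (adjusted p = 0.0571) and without uninjured week 4 replicate 4 (adjusted p = 0.0682).

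The injury effect on Il1b was smaller at week 4 than at week 3, by 2.18 log2 units ± 0.48 (SE; edgeR adjusted p = 0.000618). At week 2 the injured libraries held 230.4, 636, 476 and 739 CPM and the uninjured ones 361, 242, 421 and 150.3 CPM, which overlapped (log2 fold change 0.84 ± 0.34 SE, edgeR adjusted p = 0.139). Between weeks 2 and 3 of injured exposure Il1b fell by 3.71 on the log2 scale ± 0.40 (SE; edgeR adjusted p = 5.16e-10), and from week 3 to week 4 it rose 8.65-fold (log2 fold change 3.11 ± 0.39 SE, edgeR adjusted p = 2.29e-08). C3 and Il1b thus had the same 2 lowest groups, injured week 3 and, without overlap below it, culture.

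Interleukin 6 (Il6, ENSRNOG00000010278), a cytokine that activates STAT3 through gp130, had at most 54 counts in any library. Uninjured week 3 libraries held 7.83, 6.65, 17.1 and 7.44 CPM, and the 3 injured ones 0, 0.283 and 0 CPM from 1 count in all against 148. The ratio of pooled rates was 97.8-fold, with a 95% counting interval of 17.3 to 3890 (edgeR adjusted p = 8.7e-07). The groups did not overlap, and the size of the difference is known only within that wide interval. At week 4 the injured libraries held 5.86, 3.81, 3.62 and 2.14 CPM and the uninjured ones 8.09, 4.85, 4.90 and 10.5 CPM, which overlapped (log2 fold change -0.88, 95% interval -2.02 to 0.27, edgeR adjusted p = 0.257). The injury effect differed between weeks 4 and 3 by 5.26 log2 units ± 1.18 (SE; edgeR adjusted p = 0.000734), a fitted value that rests on the single count of injured week 3. It was 6.84 without replicate 2 of that group, which holds the count, and 4.64 without replicate 4. With injured week 3 replicate 3, which held 3 counts of Il6, in the fit it was 4.19 (edgeR adjusted p = 0.00603). The fitted log2 fold change of week 3 was then -5.10, against -6.13 without that library, and both calls held. Culture held 9 counts over 4 libraries, 0 to 0.884 CPM. Week 2 gave 1 count over the injured and 3 over the uninjured libraries, so no difference was detectable at this depth.

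Chemokine Ccl2 (ENSRNOG00000007159), which draws monocytes to injured tissue, was lower in injured cord at both deep weeks. Uninjured libraries held 19.9, 52.5, 73.5 and 50.8 CPM at week 3 and 79.6, 86.9, 67.8 and 145 CPM at week 4. Injured libraries held 5.07, 12.7 and 2.72 CPM at week 3 and 21.5, 24.25, 15.8 and 17.15 CPM at week 4. No injured library reached the lowest uninjured library of its week. The log2 fold change was -2.82 ± 0.53 (SE) at week 3 (edgeR adjusted p = 2.22e-05) and -2.27 ± 0.44 (SE) at week 4 (edgeR adjusted p = 7.07e-05). The week 3 value was -3.41 without injured replicate 2 and -2.19 without injured replicate 4. These effects did not differ detectably between the weeks, with a difference of 0.55 and a 95% interval of -0.83 to 1.92 (edgeR adjusted p = 0.675). Culture held 9.39 to 12.3 CPM, inside the injured week 3 range and below every injured week 4 library, although that second difference did not pass the test (log2 fold change 0.82, edgeR adjusted p = 0.163). Week 2 spread widely, at 14.9, 19.96, 51.5 and 115.6 CPM in injured and 147.6, 65.0, 64.5 and 4.17 CPM in uninjured cord (log2 fold change -0.36, 95% interval -1.49 to 0.77, edgeR adjusted p = 0.764).

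Lipocalin 2 (Lcn2, ENSRNOG00000013973), a secreted iron-carrier binding protein of the acute phase and of reactive astrocytes, had 0 counts in all 3 injured week 3 libraries. Uninjured week 3 libraries held 5.12, 8.05, 0.6335 and 4.20 CPM from 72 counts. With a floor of 3 counts over the injured group (0.288 CPM), Lcn2 stood at least 15.6-fold lower there (edgeR adjusted p = 1.95e-05), or at least 10.3 to 10.6-fold without 1 of the injured libraries. Each injured week 4 library held exactly 2 counts, 0.518 to 0.693 CPM, and the uninjured ones held 3.56, 3.40, 4.52 and 3.11 CPM. These did not overlap either, with means 5.90-fold apart (log2 fold change -2.48 ± 0.74 SE, edgeR adjusted p = 0.0088).

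Lcn2 stood the other way in mean at week 2, with the higher level in injured cord, but the main fit did not call this difference. The injured week 2 libraries held 14.9, 12.5, 20.6 and 56.5 CPM, from 2, 5, 10 and 21 counts. The uninjured ones held 0, 0, 11.95 and 0 CPM, where 3 counts would have been 7.17 to 12.5 CPM. The groups did not overlap, as for 0.707% of all genes in this direction. The log2 fold change was 2.75 ± 0.85 (SE; edgeR adjusted p = 0.0594, not called). It was called without the low count filter (edgeR adjusted p = 0.049) and without injured replicate 1, 2 or 3 of that week (edgeR adjusted p = 0.0478, 0.0389 and 0.0498). A fit of the compared groups alone called 0 genes at this week. With RLE factors (edgeR adjusted p = 0.0546) and with all 28 libraries (edgeR adjusted p = 0.074) the Lcn2 difference was not called. Without uninjured replicate 3, which holds all 5 uninjured counts, it was called with no reliable size (edgeR adjusted p = 0.0156), and without injured replicate 4 it was 2.03 (edgeR adjusted p = 0.185). From week 2 to week 3 of injured exposure Lcn2 went at least 90.5-fold lower (edgeR adjusted p = 3.59e-08). That bound was 55.4-fold without injured week 2 replicate 4, and 59.6 to 61.7-fold without 1 of the injured week 3 libraries, which raises the floor. Injured week 2 also exceeded culture, which held 1.61 to 2.88 CPM, with a log2 fold change of 3.61 ± 0.65 (SE; edgeR adjusted p = 1.58e-05), or 2.89 without injured replicate 4.

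Stat3 (ENSRNOG00000019742), the transcription factor downstream of the interleukin 6 family, was higher in injured cord at week 3, where Il6 RNA was lower. Signalling was not measured. Injured libraries held 399.9, 393 and 500.4 CPM at week 3 and 303, 252, 407 and 408 CPM at week 4. Uninjured libraries held 134, 179, 98.2 and 136 CPM at week 3 and 119.75, 123.03, 107.02 and 107.85 CPM at week 4. The injured libraries were all above the uninjured ones at both weeks. The difference was 3.15-fold at week 3 (log2 fold change 1.65 ± 0.30 SE, edgeR adjusted p = 1e-05) and 2.99-fold at week 4 (log2 fold change 1.58 ± 0.29 SE, edgeR adjusted p = 2.04e-05). No difference between the weeks was detected (-0.07, 95% interval -0.93 to 0.78, edgeR adjusted p = 0.951).

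In mean, culture lay between these groups for Stat3, at 264, 226.2, 259.4 and 248.8 CPM. Stat3 was lower than culture in all 3 uninjured groups (log2 fold changes -1.12, -0.87 and -1.12 at weeks 2, 3 and 4, standard errors 0.31, 0.28 and 0.28, edgeR adjusted p = 0.00333, 0.00874 and 0.000932). It was also lower than culture in injured week 2 (log2 fold change -1.17 ± 0.31 SE, edgeR adjusted p = 0.00176), a call lost when only those groups were fitted (edgeR adjusted p = 0.0673). Without injured week 2 replicate 2 that value was -1.79. Injured week 3 stood above culture without overlap, but just missed the threshold (log2 fold change 0.79 ± 0.30 SE, edgeR adjusted p = 0.0552), and passed it without the week 2 libraries (edgeR adjusted p = 0.00204), with RLE factors (edgeR adjusted p = 0.0309) and with DESeq2 (adjusted p = 0.00829). It did not pass without the low count filter (edgeR adjusted p = 0.0776), with all 28 libraries (edgeR adjusted p = 0.169) or on leaving out any 1 library of either group (edgeR adjusted p from 0.093 to 0.213). Injured week 4 overlapped culture and was not called in the main fit (log2 fold change 0.46 ± 0.28 SE, edgeR adjusted p = 0.221). At week 2 the injured libraries held 22.3 to 219.6 CPM, from 3 to 88 counts, and the uninjured ones 155.8, 119.2, 86.0 and 104.4 CPM, so that the range of the uninjured libraries lay within that of the injured ones (edgeR adjusted p = 0.969). Stat3 rose 4.18-fold from week 2 to week 3 of injured exposure (log2 fold change 1.96 ± 0.32 SE, edgeR adjusted p = 3.87e-06), and the injury effect differed between these weeks by 1.71 log2 units ± 0.45 (SE; edgeR adjusted p = 0.00285). Without injured week 2 replicate 2 these log2 values were 2.58 and 2.33.

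Cd44 (ENSRNOG00000006094), the surface receptor for hyaluronan and osteopontin and a marker of reactive astrocytes, had its highest level in injured week 4. Those libraries held 253, 390.4, 295 and 333 CPM, and uninjured week 4 libraries 29.45, 38.1, 44.1 and 41.9 CPM. The lowest injured library was several times the highest uninjured one, and the means of 318 ± 58.5 and 38.4 ± 6.45 CPM (SD, n = 4 each) were 8.28-fold apart (log2 fold change 3.05 ± 0.32 SE, edgeR adjusted p = 1.61e-10). At week 3 the injured libraries held 48.4, 57.9 and 62.2 CPM and the uninjured ones 30.4, 29.4, 9.19 and 24.6 CPM. They did not overlap, and differed 2.40-fold (log2 fold change 1.25 ± 0.33 SE, edgeR adjusted p = 0.00155). The injury effect was larger at week 4 than at week 3 by 1.80 log2 units ± 0.45 (SE; edgeR adjusted p = 0.0027).

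Culture held 142.2, 106.6, 133.2 and 136.9 CPM of Cd44, below injured week 4 and above every library of both conditions at week 3 and of uninjured week 4. Against culture, injured week 4 was 2.45-fold higher (log2 fold change 1.29 ± 0.30 SE, edgeR adjusted p = 0.000428) and injured week 3 2.31-fold lower (log2 fold change -1.21 ± 0.33 SE, edgeR adjusted p = 0.00558). The week 2 groups, at 22.3, 104.8, 86.6 and 102.2 CPM in injured and 131.2, 93.9, 52.6 and 29.2 CPM in uninjured cord, overlapped (log2 fold change 0.17, 95% interval -0.61 to 0.96, edgeR adjusted p = 0.854).

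Galectin 3 (Lgals3, ENSRNOG00000010645), a sugar-binding protein of activated microglia and macrophages, was also highest in mean in injured week 4, at 44.9, 66.2, 25.1 and 33.1 CPM. Culture followed at 31.6 to 44.5 CPM, and uninjured week 4 held 11.7, 13.6, 23.0 and 22.6 CPM. Injured and uninjured week 4 libraries did not overlap, with a log2 fold change of 1.25 ± 0.44 (SE; edgeR adjusted p = 0.0286). This call was lost with all 28 libraries (adjusted p = 0.203), with DESeq2 (adjusted p = 0.0728) and on leaving out injured replicate 1 or 2 or uninjured replicate 1 or 2 of week 4 (edgeR adjusted p = 0.0618, 0.136, 0.0998 and 0.102). At week 3 the injured libraries held 10.1, 17.2 and 7.545 CPM and the uninjured ones 12.35, 7.0, 1.58 and 3.56 CPM, which overlapped (log2 fold change 0.83, 95% interval -0.25 to 1.92, edgeR adjusted p = 0.196). In week 2, 3 of 8 libraries had 0 counts of Lgals3 and the rest at most 19. The order of means was injured week 4, culture, uninjured week 4, injured week 2, injured week 3, uninjured week 2 and uninjured week 3, and culture and uninjured week 4 were the 1 pair of neighbours without overlap.

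Osteopontin (Spp1, ENSRNOG00000043451), a secreted matrix ligand of integrins and of CD44, passed the edgeR test of injury at no week in the main fit. Injured libraries held 115.1, 75.7 and 48.0 CPM at week 3 and 315, 641, 216 and 260.3 CPM at week 4. Uninjured libraries held 26.97, 124.3, 100.7 and 64.35 CPM at week 3 and 208, 238, 168 and 414 CPM at week 4. The ranges overlapped at both weeks, with log2 fold changes of 0.02 (95% interval -1.07 to 1.11, edgeR adjusted p = 0.983) and 0.48 (95% interval -0.52 to 1.47, edgeR adjusted p = 0.517). At week 2 the injured libraries held 44.6, 299, 161 and 202 CPM and the uninjured ones 90.2, 86.7, 100.4 and 0 CPM, which overlapped (log2 fold change 1.38 ± 0.58 SE, edgeR adjusted p = 0.174). That difference passed without the low count filter (edgeR adjusted p = 0.00809). In culture Spp1 held 20.7, 21.9, 24.8 and 17.8 CPM. It was called higher than culture in all 6 exposed groups, by 3.25 to 16.8-fold in means, as were C3 and Il1b. The Spp1 call was lost in uninjured week 2 without replicate 2 or 3 (edgeR adjusted p = 0.0517 and 0.0841) and in injured week 3 without replicate 1 (edgeR adjusted p = 0.0795).

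**Figure D2:**
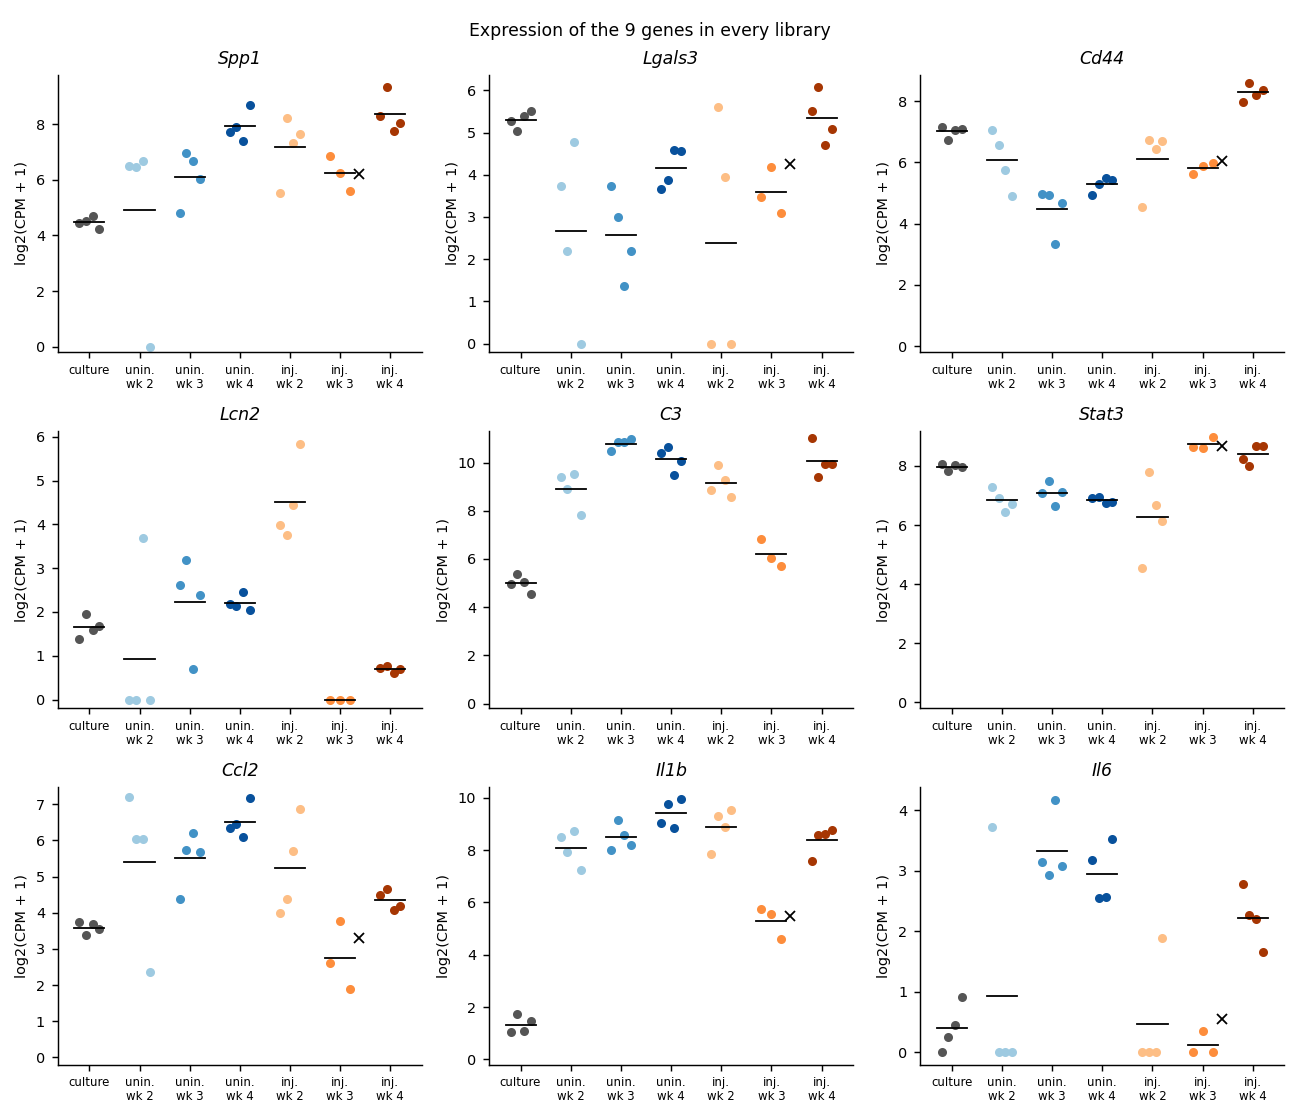
Level of each gene as log2(CPM + 1) in every library, grouped by exposure (unin., uninjured; inj., injured; wk, week), with the group mean of that scale as a black line. Crosses show injured week 3 replicate 3 where it had counts, scaled in the fit of all 28 libraries. It is in no mean. For C3, Il1b and Il6 the injured week 3 points lie below those of injured and uninjured week 4, and for Stat3 they lie above all uninjured points.

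**Figure D3:**
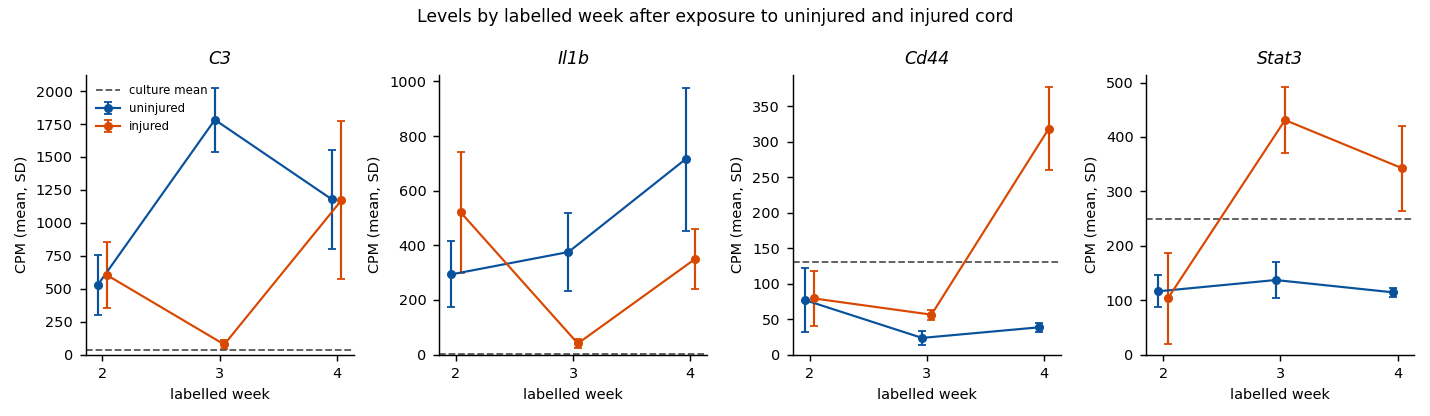
Mean CPM with SD of C3, Il1b, Cd44 and Stat3 against the labelled week in uninjured and injured exposure, with the culture mean as a dashed line (n = 4, and 3 for injured week 3). The lines join separate samples. C3 and Il1b have their low point in injured cord at week 3, and Cd44 its high point at week 4. Stat3 lies above culture in mean in injured cord at weeks 3 and 4, but neither difference was called in the main fit.

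The comparisons with culture all share its 4 libraries. C3, Il1b and Spp1 were higher in every exposed group, the largest ratio being that of Il1b in uninjured week 4 (459-fold in means, log2 fold change 8.80 ± 0.47 SE, edgeR adjusted p = 2.4e-19). For injured week 3 the ratio of Il1b was 26.0-fold (log2 fold change 4.66 ± 0.44 SE, edgeR adjusted p = 2.78e-11) and that of C3 2.44-fold (log2 fold change 1.29 ± 0.34 SE). Ccl2 was higher in the 3 uninjured groups and in injured week 2, and Il6 in uninjured weeks 3 and 4 and injured week 4. Cd44, Lgals3 and Stat3 were lower than culture in uninjured weeks 3 and 4, Lgals3 and Stat3 also in uninjured week 2, Stat3 also in injured week 2, and Cd44 and Lgals3 also in injured week 3. The uninjured week 4 call of Lgals3 was lost with all 28 libraries and with DESeq2 (adjusted p = 0.109 and 0.0622), and on leaving out uninjured week 4 replicate 1 or 2 or culture replicate 1 (edgeR adjusted p = 0.1, 0.0596 and 0.0553). The uninjured week 2 call of Lgals3 was lost with RLE factors (edgeR adjusted p = 0.0724), with DESeq2 (adjusted p = 0.0527), and on leaving out uninjured week 2 replicate 1, 2 or 4 or culture replicate 1, 3 or 4 (edgeR adjusted p from 0.05 to 0.126). Lcn2 was higher in injured week 2 and at least 7.54-fold lower in injured week 3 (edgeR adjusted p = 0.00124), or at least 4.97 to 5.14-fold without 1 of the injured libraries. In uninjured weeks 2, 3 and 4, 6, 8 and 8 of the 9 genes were called, against 42.1%, 49.9% and 46.3% of all genes. In injured weeks 2, 3 and 4, 6, 6 and 5 were called, against 45.0%, 19.2% and 33.6% of all genes. Without injured week 3 replicate 1, 3 in place of 6 were called for injured week 3 (C3, Spp1 and Lgals3 were lost, with edgeR adjusted p = 0.117, 0.0795 and 0.0535). Over all genes, leaving out 1 library of either group gave 2084 to 2302 calls for injured week 3, against 2744 in the full fit. Lgals3 was also lost there with all 28 libraries, as in uninjured week 2 (edgeR adjusted p = 0.0956 and 0.081).

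**Figure D4:**
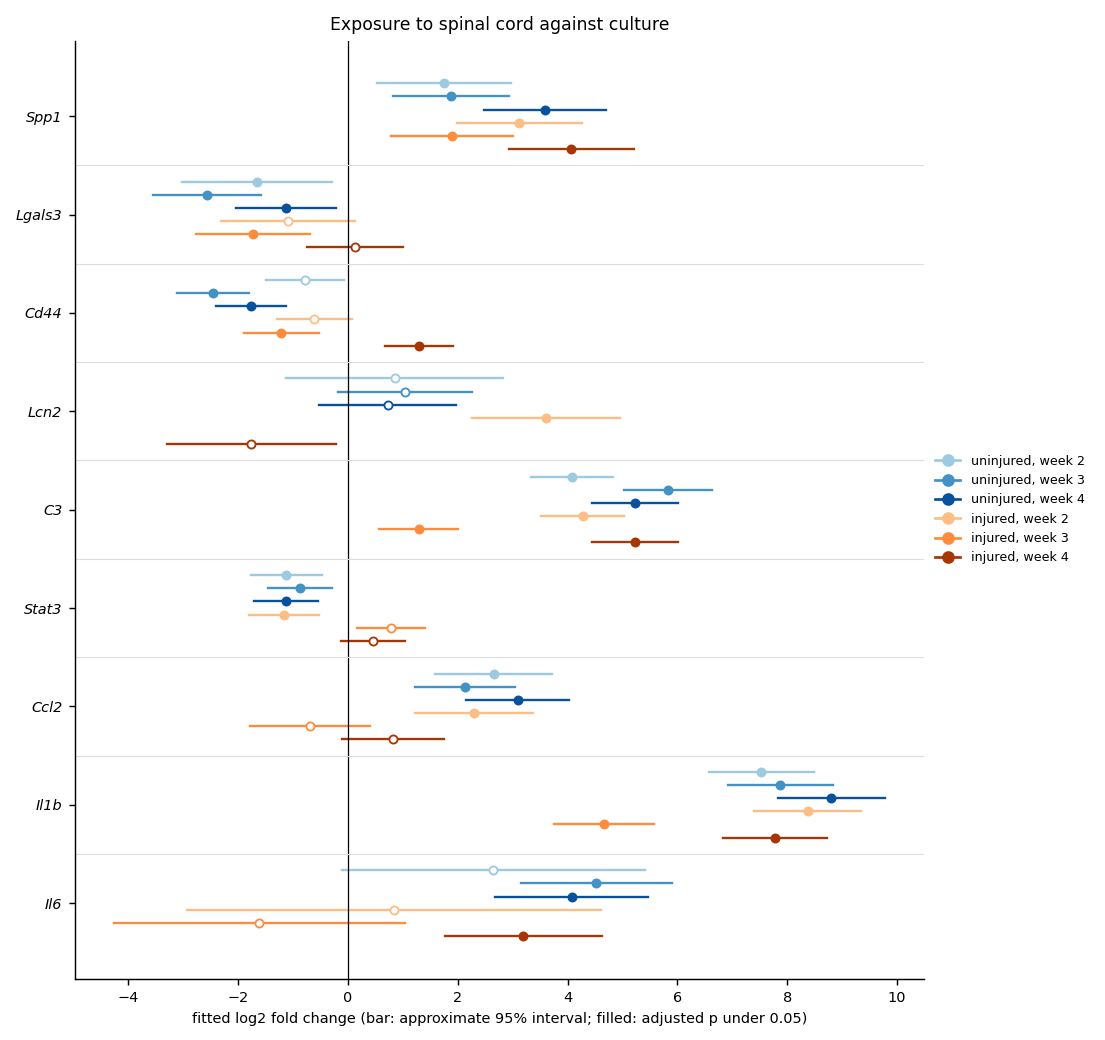
Fitted log2 fold changes of each exposed group against culture for the 9 genes (y axis), with approximate 95% intervals as bars. Filled points passed an adjusted p under 0.05 in edgeR. Injured week 3 of Lcn2 is left out because its libraries had 0 counts. Il1b lies between 4.66 and 8.80 in all 6 groups, and the injured week 3 points of C3 and Il1b are the lowest of those genes.

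From week 3 to week 4 of injured exposure, 7 of the 9 genes rose (C3, Il1b, Il6, Ccl2, Cd44, Lgals3 and Spp1) and none fell, against 21.6% of all genes called, 13.8% higher and 7.77% lower. The median log2 fold change was 2.5 over the 9 genes, or 2.17 with Lcn2 at its bound, and -0.0338 over all genes. RLE factors shifted the latter by -0.159 and ended the call of Ccl2 (edgeR adjusted p = 0.0684), which was also lost with all 28 libraries (edgeR adjusted p = 0.157), with DESeq2 (adjusted p = 0.0721) and on leaving out injured week 3 replicate 1 or 4 or any 1 of the injured week 4 libraries (edgeR adjusted p from 0.058 to 0.316). Il6 rose from 1 count to 50, a ratio of pooled rates of 39.8 with a 95% counting interval of 6.81 to 1600 (edgeR adjusted p = 0.00036). Its fitted log2 fold change was 4.81, and 3.75 with all 28 libraries (edgeR adjusted p = 0.00179). Cd44 rose 5.66-fold, Spp1 4.5-fold and Lgals3 3.63-fold (edgeR adjusted p = 1.87e-07, 0.0047 and 0.00483), of which Lgals3 was lost with all 28 libraries (edgeR adjusted p = 0.0999) and both Spp1 and Lgals3 without injured week 3 replicate 4 (edgeR adjusted p = 0.069 and 0.0919). Without that library 4 of the 9 genes were called. Over all genes, leaving out 1 library of either group gave 2385 to 2983 calls in this comparison, against 3078 in the full fit. In uninjured exposure none of the 9 genes passed the edgeR test between these weeks in the main fit, against 0.525% of all genes. Of the 9 genes, 5 had an unadjusted p under 0.05 in that fit. Over all genes such values were far more frequent than calls. They were found for 1050 of 13865 genes with all 28 libraries and 4051 of 13586 without the week 2 libraries. Whether 5 of 9 exceeds the share of all genes was not tested. DESeq2 called 1 of the 9, Spp1, whose mean was 3.25-fold higher at week 4 (edgeR adjusted p = 0.108). Without the week 2 libraries edgeR called 3 of the 9, Spp1, Lgals3 and Il1b (adjusted p = 0.0177, 0.0367 and 0.0421), against 1619 of 13586 genes.

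The injury effect differed between weeks 3 and 4 for 4 of the 9 genes, C3, Il1b, Il6 and Cd44, each with the higher value at week 4, against 18.7% of all genes called and 11.5% in that direction. Within injured exposure, 5 of the 9 genes differed between weeks 3 and 2 (C3, Il1b, Ccl2 and Lcn2 lower and Stat3 higher at week 3), against 44.7% of all genes. Ccl2 was 7.39-fold lower, a log2 fold change of -2.98 (edgeR adjusted p = 8.11e-05), which was -2.25 without injured week 2 replicate 4 and -3.67 without injured week 3 replicate 2. Between weeks 2 and 3, the injury effect differed for 5 of the 9 genes, against 30.4% of all genes. C3, Il1b, Ccl2 and Lcn2 had the lower and Stat3 the higher value at week 3. The differences were -4.74 log2 units for C3, -4.05 for Il1b and -2.46 for Ccl2 (SE 0.50, 0.51 and 0.75 in that order; edgeR adjusted p = 3.64e-10, 1.84e-08 and 0.0103). That of Ccl2 was lost with all 28 libraries (edgeR adjusted p = 0.057) and when only the groups compared were fitted (edgeR adjusted p = 0.0803), and without injured week 2 replicate 4 or injured week 3 replicate 4 (edgeR adjusted p = 0.0865 and 0.0831). It was -3.07 without uninjured week 2 replicate 1. Both comparisons with week 2 were added after the data were seen. Each of these values sets week 2 libraries of low depth against deep ones, and the part of depth in them was not tested.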

How the data were processed

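The 28 libraries were made, per the labels' protocols, from Trizol RNA treated with DNase, with a stranded total RNA kit for low inputs. Tools named in the submitters' processing notes include the aligner STAR 2.5.1 and the read counter featureCounts 1.5.1. The same notes name the mouse build GRCm38, although the identifiers are rat. The genome aligned to is thus unsettled, and the strand setting is not given in the sources used here. The authors deposited raw counts per gene, without normalization.

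Tests used edgeR 4.0.16 (R 4.3.3) on 27 libraries, leaving out injured week 3 replicate 3. Genes were kept by filterByExpr, libraries scaled by TMM, and a mean per group fitted with the robust quasi-likelihood method on 20 residual degrees of freedom. No pair of libraries was identical. P-values were adjusted by Benjamini-Hochberg across the 14282 genes and called under 0.05, in 12 planned and 2 added comparisons. CPM used TMM-scaled totals of those genes, and for injured week 3 replicate 3 the scaled total from the fit of all 28 libraries. Standard errors came from the F statistic, approximate 95% intervals from a t quantile. Floors are 3 counts. Floors and counting intervals cover counting error only. Promoter matches were found by a string search. The tests were also run on simulated counts, with the same spread for every gene and a small part of the genes changed. These settings are simpler than the data, and no result here rests on that run.

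The members, comparisons and lists were chosen with earlier results of these data known. All 9 members were to be named. The planned lists of pathway genes and cell type markers, and the search for genes of like pattern, needed symbols for other identifiers. None of the 32545 identifiers matched the reference table, so these were not analysed here. Alternatives were RLE factors, DESeq2 1.42.0, no low count filter, all 28 libraries, no week 2 libraries, a fit of the 2 to 4 groups a comparison needs, and each library left out once. Bounds against 0 counts were also computed without each library, an alternative added after the data were seen.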

Additional observations from a re-analysis of the deposited data

Results flagged for a closer look

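Of 54 groups of 4 values, 5 had 1 library apart from the other 3 by Dixon's ratio at the 95% level, where chance gives about 2.7. In 3 of the 5 the other 3 libraries were all at 0, which fixes the ratio at 1. These were Il6 in injured week 2 replicate 4 (2.69 CPM from 1 count), Il6 in uninjured week 2 replicate 1 (12.3 CPM from 3 counts) and Lcn2 in uninjured week 2 replicate 3 (11.95 CPM from 5 counts). Spp1 was at 0 CPM in uninjured week 2 replicate 4, where its companions held 86.7 to 100.4 CPM. Il6 was at 17.1 CPM in uninjured week 3 replicate 3, and its companions held 6.65 to 7.83 CPM.

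The effect of injury differed between weeks 4 and 3 for C3 (4.54 log2 units), Il6 (5.26), Il1b (2.18) and Cd44 (1.80), each by an edgeR interaction test. Between weeks 3 and 2 it differed for C3 (-4.74), Il1b (-4.05), Ccl2 (-2.46), Stat3 (1.71) and Lcn2 (-9.47). The Lcn2 value is a fitted one that rests on 0 counts in injured week 3 and has no reliable size.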

How the results depend on the processing

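Over 9 genes and 14 comparisons, 73 fold changes were called. None of these reversed under any alternative run, and 60 kept their call under every one. The other 13 lost it at least once, 5 of them for Lgals3, 3 for Spp1, 2 for Ccl2 and 1 each for C3, Il1b and Stat3. Among alternatives other than leaving out 1 library, the number of members called moved by over 1.5 times in 2 comparisons. For injured against uninjured cord at week 2, 0 members were called by edgeR, 2 without the low count filter and 1 by DESeq2. For uninjured week 4 against week 3, 0 were called by edgeR, 3 without the low count filter, 3 without the week 2 libraries and 1 by DESeq2. Leaving out 1 library moved it by over 1.5 times in 3, giving 0 to 1, 3 to 6 and 4 to 7 members called for injured against uninjured at week 2, injured week 3 against culture and injured week 4 against week 3, where the full values were 0, 6 and 7. Over all genes these fits gave 413 to 695, 2084 to 2302 and 2385 to 2983 calls, where the full values were 481, 2744 and 3078.

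Counts over all genes moved more. Without the week 2 libraries they rose from 3895 to 6269 for injury at week 4, from 2744 to 5046 for injured week 3 against culture, from 3078 to 5435 for injured week 4 against week 3, from 75 to 1619 for uninjured week 4 against week 3 and from 2674 to 4629 for the difference of the injury effect between these weeks. DESeq2 gave 4177, 5064, 941 and 4399 for the last 4 and 1653 against 481 for injury at week 2. With all 28 libraries, injury at week 2 gave 300 genes, injury at week 4 2396 and uninjured week 4 against week 3 0 (1050 at an unadjusted p under 0.05). That last comparison gave 374 without the filter and 2 to 161 on leaving out a library. Fits of the compared groups only gave 0 genes for injury at week 2 (135 of 4992 at an unadjusted p under 0.05), 3714 for injured week 2 against culture (6422 in the full fit), 1835 for injured week 3 against week 2 (6386) and 2120 for the injury effect between these weeks (4340). The causes were not tested.

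Fold changes that changed sign were all of values not called. Lgals3 in injured week 4 against culture went from 0.13 to -0.097 without the filter and -0.062 with all 28 libraries. On leaving out a library, the log2 ranges that crossed 0 were, for injury at week 2, C3 -0.12 to 0.41, Ccl2 -1.10 to 0.23, Cd44 -0.072 to 0.55, Il6 -5.99 to 4.33, Lgals3 -0.84 to 1.78 and Stat3 -0.67 to 0.18. For injury at weeks 3 and 4 they were Spp1 -0.36 to 0.53 and C3 -0.44 to 0.19. For the change of the injury effect from week 3 to week 4 they were Ccl2 -0.062 to 1.15, Lgals3 -0.43 to 0.61, Spp1 -0.012 to 0.85 and Stat3 -0.36 to 0.039, and from week 2 to week 3 Lgals3 -0.96 to 1.66. Against culture they were Il6 -3.34 to 1.77 in injured week 2 and -3.34 to 3.57 in uninjured week 2, Lcn2 -5.73 to 1.33 in uninjured week 2 and Lgals3 -0.18 to 0.17 in injured week 4. Between weeks they were Il6 -4.12 to 1.72 and Lgals3 -1.09 to 0.77 in injured week 3 against week 2, and Lcn2 -0.62 to 0.072 in uninjured week 4 against week 3. The Il6 and Lcn2 ranges that use week 2 include fits without the library that holds all counts of a group. Such a fit leaves that group at 0 counts, and an end of a range that comes from it has no reliable size. At week 2 the floor of 3 counts in 1 library is 6.18 to 22.3 CPM, the level that a count of 0 in 1 library allows. No paired analysis was possible because the labels carry no replicate numbers.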
